A study of Arabidopsis thaliana with 16 samples.

Results

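The small (40S) subunit of the cytosolic ribosome was followed through its protein genes in Arabidopsis thaliana pollen tubes. The members are 57 listed genes for the proteins RPSA to RPS28, chosen by locus identifier from the 33323 genes of the count tables, and all 57 were found. They fall into 26 families, 23 of them with 2 or 3 listed paralogs. Other cytosolic small-subunit genes, such as those of RPS12, RPS21, RPS26, RPS29 and RPS30, are not in the list and were kept as a separate set of 40 genes.

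Tubes carried the paps1-1 allele of the nuclear poly(A) polymerase PAPS1 or were wild type (WT), both in the Col-0 ecotype. They were grown semi-in vivo, that is, through a cut pistil, and the labels state no treatment or age. RNA of 4 paps1-1 and 4 WT samples was each split into a library primed only with oligo(dT), which anneals to poly(A) tails, and a library primed only with random hexamers, which anneal along a transcript. The 4 groups of 4 libraries are therefore paps1-1 with oligo(dT), WT with oligo(dT), paps1-1 with random hexamers and WT with random hexamers. The paps1-1 allele is known as a missense change, so the level of PAPS1 transcripts checks no label. All libraries went through a step that removes ribosomal RNA. The series title ties the priming contrast to the length of poly(A) tails. Nothing in the labels ties replicates to different plants or days. The spread that the p-values are set against is thus that between these RNA samples and may be technical.

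The 40S subunit binds the messenger RNA, scans to the start codon and reads codons in its decoding centre. Each of its proteins is present once per ribosome, while in Arabidopsis most are encoded by several similar genes, so the output of a family is divided among paralogs. Pollen is known to enter germination with stored ribosomes and messenger RNAs. Ribosomal protein genes of plants often carry 2 short promoter elements, the telo-box and site II, which are known for activity in dividing cells. Roles of single proteins are given below as known from ribosomes of yeast and mammals.

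Gene counts ranged from 70006 (WT oligo(dT) replicate 3) to 5294715 (paps1-1 random-hexamer replicate 1) per library. A count of 0 therefore allows up to 42.9 CPM in the shallowest library and 0.567 CPM in the deepest, where CPM is a gene's count scaled to 1e+06 gene counts of its library (the limit is 3 counts and covers counting error only, as reads carried no molecular identifiers). Of 13 pollen-tube marker genes, 13 were detected in each random-hexamer library and 7 to 13 in the oligo(dT) libraries, where they held 2.02% to 6.70% of gene counts in paps1-1 and 6.04% to 13.4% in WT. With random hexamers they held 2.02% to 5.63% in paps1-1 and 3.78% to 5.24% in WT. The paps1-1 replicates 2 and 3 stand apart from the other libraries of their groups in the values below. The 40S share, the members' medians and the single values that moved most are given with and without them. Since they hold the highest 40S shares of paps1-1, leaving them out lowers the members' paps1-1 values by that choice.

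The 57 genes together took a small and uneven share of gene counts. With oligo(dT) they held 0.295%, 1.17%, 1.02% and 0.386% of gene counts in paps1-1 replicates 1 to 4, against 0.0894%, 0.320%, 0.197% and 0.591% in WT. With random hexamers they held 0.122%, 0.561%, 0.548% and 0.207% in paps1-1, against 0.0784%, 0.187%, 0.231% and 0.339% in WT. The paps1-1 replicates 2 and 3 were highest with both primers, and the genotypes overlapped with both. The means were 0.717% ± 0.441 in paps1-1 and 0.299% ± 0.216 in WT with oligo(dT), and 0.360% ± 0.228 in paps1-1 and 0.209% ± 0.108 in WT with random hexamers (SD, n = 4 each). Without paps1-1 replicates 2 and 3, the 2 remaining paps1-1 values lay within the range of the WT values with both primers. The oligo(dT) library held the larger share in 7 of 8 RNA samples, the exception being WT replicate 3.

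**Figure D1:**
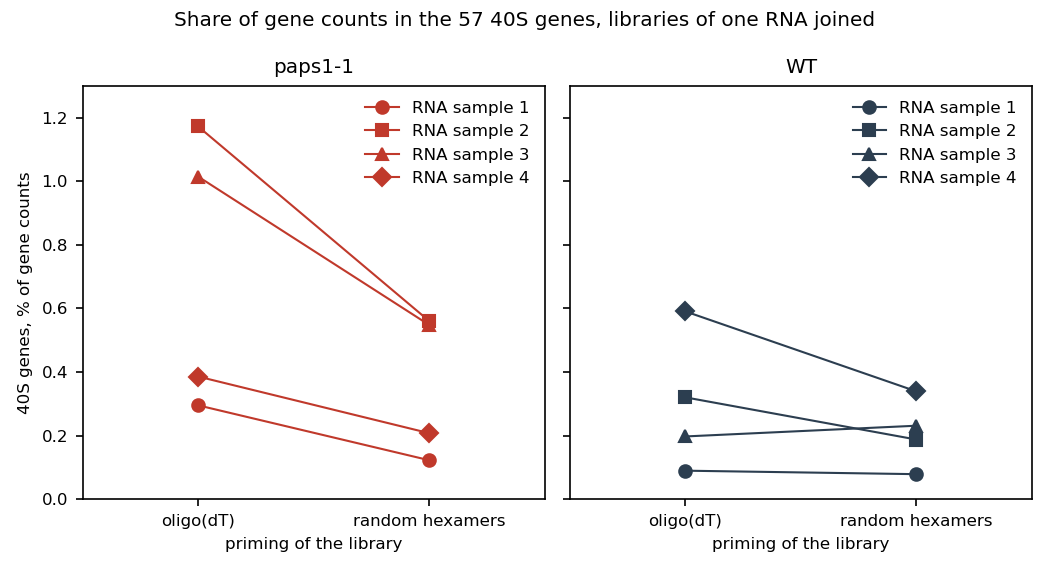
Share of gene counts held by the 57 40S genes (y axis, percent) in the oligo(dT) and the random-hexamer library of each RNA sample, paps1-1 in the left panel and WT in the right. A line joins the 2 libraries of 1 RNA. The paps1-1 samples 2 and 3 reach 1.17% and 1.02% with oligo(dT), and only WT sample 3 has the higher share with random hexamers.

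Other genes moved with that share. The 22 listed large-subunit (60S) genes were also highest in paps1-1 replicates 2 and 3, at 0.616% and 0.620% with oligo(dT) and 0.375% and 0.369% with random hexamers, while no WT library exceeded 0.277%. The 13 pollen-tube markers were lowest in these replicates, at 2.73% and 2.02% with oligo(dT) and 2.30% and 2.02% with random hexamers. The 14 photosynthesis genes, markers of green tissue, spanned 0.0285% to 0.718% in paps1-1 and 0.00571% to 0.227% in WT with oligo(dT), and 0.0232% to 0.581% in paps1-1 and 0.0242% to 0.220% in WT with random hexamers. The highest value was that of paps1-1 replicate 3 with both primers. The 10 pistil markers spanned 0% to 0.0529% in paps1-1 and 0% to 0.00902% in WT with oligo(dT), and 0.00928% to 0.0423% in paps1-1 and 0.00290% to 0.00987% in WT with random hexamers. Their highest value was that of paps1-1 replicate 2 with both primers, and 0 of 10 were detected in paps1-1 oligo(dT) replicate 4 and in WT oligo(dT) replicates 1 and 3. The part of other cells in the 40S share was not tested. In bulk samples, more or fewer cells of a type and more or less RNA per cell cannot be told apart.

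Fewer members were detected with oligo(dT) than with random hexamers in most RNA samples. Random-hexamer libraries held reads of 55, 55, 56 and 50 of the 57 genes in paps1-1 and of 52, 52, 34 and 50 in WT. The oligo(dT) libraries of the same RNA held 53, 55, 42 and 36 in paps1-1 and 31, 34, 8 and 46 in WT. In each of the 8 RNA samples the oligo(dT) library detected no more members than its partner. A total of 29 members were detected in all 8 random-hexamer libraries, against 2 in all 8 oligo(dT) libraries, namely AT2G17360 (RPS4) and AT5G15200 (RPS9). Over all genes, random-hexamer libraries detected 15962 to 17736 in paps1-1 and 6043 to 16230 in WT. The oligo(dT) libraries detected 5424 to 14241 and 2266 to 7750, fewer than their partner in each RNA sample. Depth differed between partners in both directions, for example 70006 against 628358 gene counts in WT replicate 3 and 4483949 against 3332503 in paps1-1 replicate 2.

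**Figure D2:**
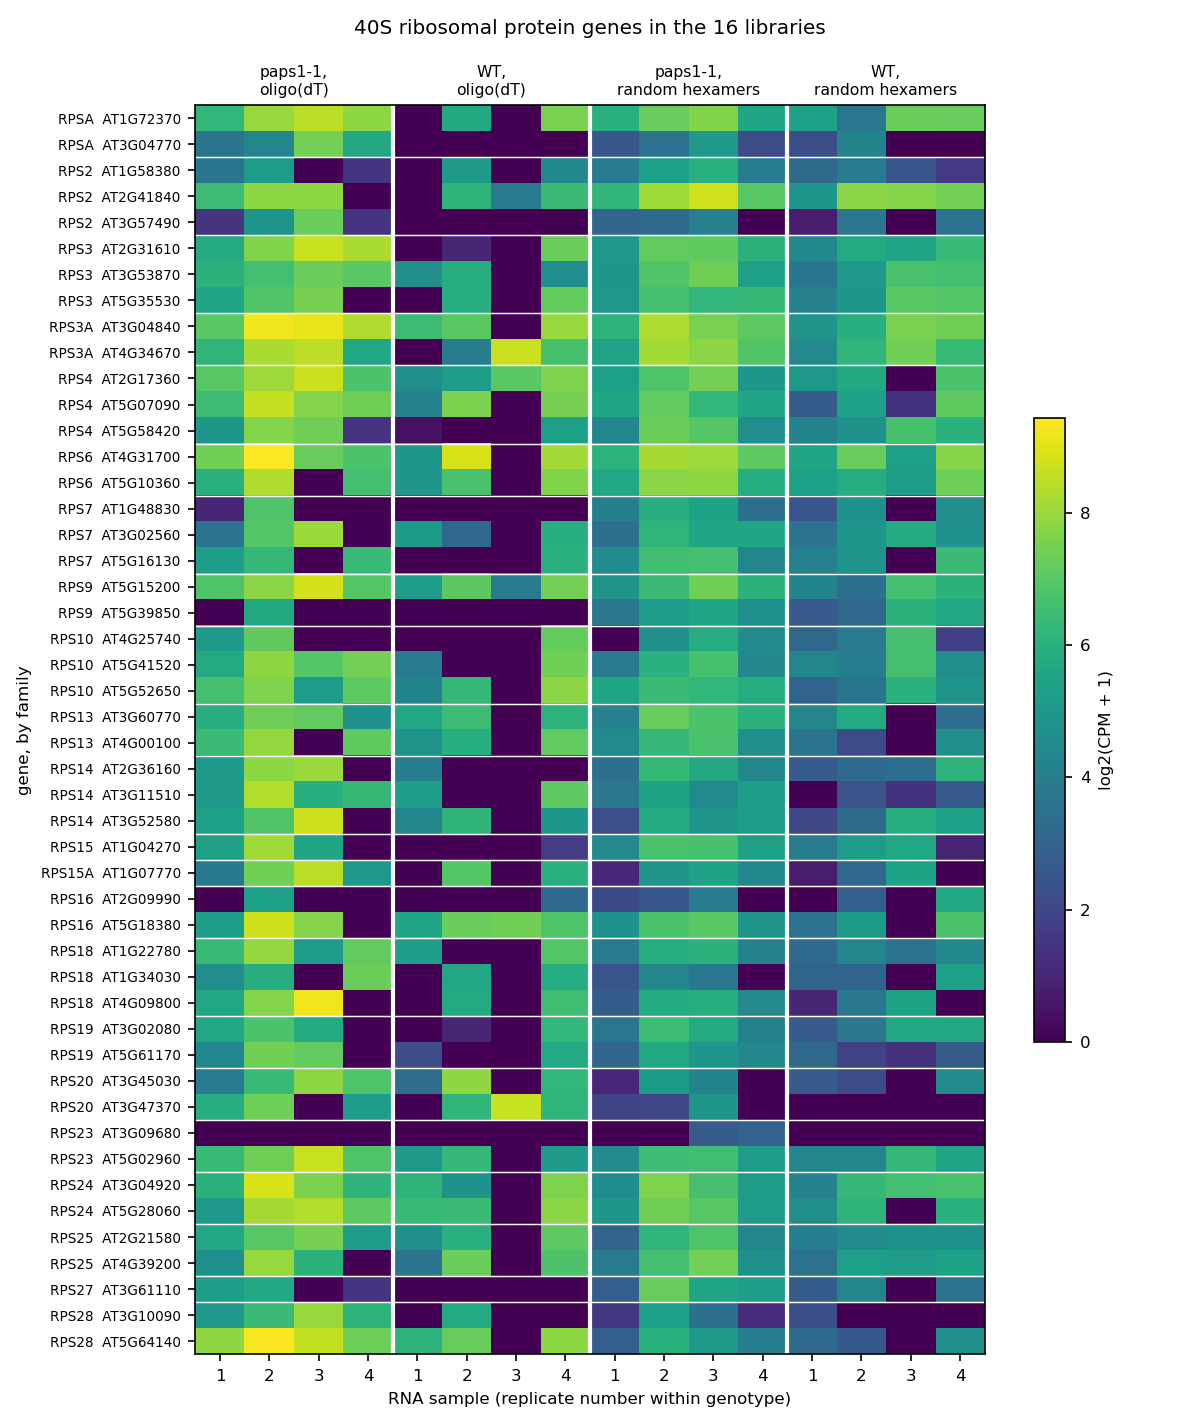
Level of 48 of the 57 40S genes as log2(CPM + 1) (colour) in the 16 libraries (columns, replicate number within a genotype), grouped by priming and genotype; rows are genes sorted by family, with families set apart by thin white lines. Dark cells are genes without a read, which are most frequent in the WT oligo(dT) libraries, where replicate 3 holds reads of 8 members.

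Levels per length spanned a wide range. CPM per kilobase of coding sequence (RefSeq annotation of TAIR10.1) spanned 0 to 1203 with oligo(dT), with a median of 165, and 0.760 to 481 with random hexamers, with a median of 73.6, as means over 8 libraries. The median member stood above 94.1% of the 18200 coding genes detected with oligo(dT) and above 92.1% of the 21289 detected with random hexamers. AT5G64140 (RPS28), the gene of a small head protein beside the mRNA exit, led with oligo(dT) at 1203 CPM per kilobase but stood outside the 10 highest members with random hexamers.

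High levels with oligo(dT) were also those of AT5G28060 (RPS24) at 363, AT3G04920 (RPS24) at 336, AT3G04840 (RPS3A) at 328, AT5G18380 (RPS16) at 325, AT4G31700 (RPS6) at 316, AT3G10090 (RPS28) at 315 and AT4G09800 (RPS18C) at 273 CPM per kilobase. With random hexamers, high levels were those of AT2G41840 (RPS2) at 224, AT3G04920 at 202, AT4G31700 at 199, AT3G04840 at 181, AT4G39200 (RPS25) at 170, AT5G28060 at 161, AT4G34670 (RPS3A) at 160, AT5G10360 (RPS6) at 142 and AT3G61110 (RPS27) at 132. Per kilobase of transcript instead, 7 of the 10 highest members with oligo(dT) and 8 of the 10 with random hexamers were the same. With oligo(dT), AT3G10090 then fell from place 9 to 19 and AT5G18380 from 7 to 16, while AT3G04840 rose from 6 to 3. With random hexamers AT3G61110 fell from 10 to 22. Both RPS24 genes, AT3G04840 and AT4G31700 stood among the highest per coding length with both primers. Their neighbours in each order differed by less than their spread over libraries, as the values of AT4G31700 show. Its oligo(dT) values were 171, 694, 150 and 109 CPM in paps1-1, against 29.9, 466, 0 and 283 CPM in WT. Its random-hexamer values were 68.0, 285, 264 and 137 CPM in paps1-1, against 45.5, 149, 39.8 and 210 CPM in WT. RPS6, of which AT4G31700 is 1 of 2 genes, is the subunit's known phosphorylation target of the TOR pathway.

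The lower end held paralogs with almost no reads. AT3G09680 (RPS23) had reads only in paps1-1 random-hexamer replicates 3 and 4, at 5.63 and 6.92 CPM. Its partner AT5G02960, the gene for a protein of the decoding centre, reached 83.5, 167, 402 and 114 CPM in paps1-1 with oligo(dT), against 33.3, 78.0, 0 and 32.7 CPM in WT. With random hexamers it reached 22.7, 90.9, 91.4 and 36.3 CPM in paps1-1, against 19.3, 18.9, 78.0 and 45.0 CPM in WT. The genotypes overlapped with random hexamers and not with oligo(dT). The low paralog has sequence of its own, as 98.7% of the exonic 50-base stretches of AT3G09680 occur once in the genome.

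Members with near-identical copies are less certain, since reads that map to several places were not counted to genes. The share of exonic 50-base stretches that occur once was low for AT1G58380 (RPS2, XW6) at 71.1%, followed by AT2G09990 and AT5G18380 (RPS16) at 84.5% and 85.7%, AT5G64140 (RPS28) at 90.2% and AT1G07770 (RPS15A) at 91.7%. Coding identity between paralogs spanned 67.5% for the RPSA pair to 98.2% for the RPS16 pair, with a median of 85.1% over 39 pairs. In addition, 6 members overlap another annotated gene on their own strand, among them AT3G04770, AT2G41840, AT4G00100, AT1G04270 and AT5G64140, and reads of the shared stretch could be left out of both genes.

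The upstream sequences of 2 pairs are shown, because their paralogs stood far apart in level with oligo(dT) and no other annotated gene lies in these windows. Each is the 250 bases before the annotated gene start in RefSeq TAIR10.1, 5′ to 3′ on the strand of the gene, with capitals for the telo-box core AAACCCT and for site II, TGGGCC or TGGGCT, on either strand. AT5G15200 is the leading and AT5G39850 the lower RPS9 gene, and AT5G02960 is the leading and AT3G09680 the lower RPS23 gene. The windows lie at chr5:4936430-4936679 (minus strand) for AT5G15200, chr5:15949660-15949909 (plus strand) for AT5G39850, chr5:694516-694765 (minus strand) for AT5G02960 and chr3:2970372-2970621 (minus strand) for AT3G09680.
AT5G15200: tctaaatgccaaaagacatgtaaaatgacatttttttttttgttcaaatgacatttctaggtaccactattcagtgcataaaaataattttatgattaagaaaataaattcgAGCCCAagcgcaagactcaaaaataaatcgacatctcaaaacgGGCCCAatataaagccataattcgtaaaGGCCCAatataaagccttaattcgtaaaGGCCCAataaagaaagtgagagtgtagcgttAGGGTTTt
AT5G39850: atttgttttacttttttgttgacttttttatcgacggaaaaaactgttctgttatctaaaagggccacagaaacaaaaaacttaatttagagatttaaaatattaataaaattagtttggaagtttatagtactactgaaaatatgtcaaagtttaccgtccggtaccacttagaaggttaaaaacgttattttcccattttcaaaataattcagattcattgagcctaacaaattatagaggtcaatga
AT5G02960: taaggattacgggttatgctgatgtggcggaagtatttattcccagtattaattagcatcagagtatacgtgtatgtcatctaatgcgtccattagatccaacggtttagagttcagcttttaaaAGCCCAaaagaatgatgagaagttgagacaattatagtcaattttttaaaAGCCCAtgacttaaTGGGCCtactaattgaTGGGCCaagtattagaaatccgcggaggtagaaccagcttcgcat
AT3G09680: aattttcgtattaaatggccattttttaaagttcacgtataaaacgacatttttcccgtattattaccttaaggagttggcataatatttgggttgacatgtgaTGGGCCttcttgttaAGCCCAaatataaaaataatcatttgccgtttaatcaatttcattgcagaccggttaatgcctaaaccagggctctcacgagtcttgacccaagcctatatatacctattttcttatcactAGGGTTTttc

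The leading RPS9 gene holds 4 site II matches and 1 telo-box core in its window, and the lower one neither. The leading RPS23 gene holds 4 site II matches, and the lower one holds 2 with 1 telo-box core. Over all members, 36 of 57 (63.2%) hold site II, 16 (28.1%) the telo-box core and 12 (21.1%) both. Among 27443 protein-coding genes the same windows hold them in 19.2%, 7.33% and 2.08%. Members with site II had a median of 171 CPM per kilobase with oligo(dT) and 86.2 with random hexamers (n = 36), and those without it 160 and 40.2 (n = 21). Members with the telo-box core had a median of 138 CPM per kilobase with oligo(dT) and 79.2 with random hexamers (n = 16), and those without it 187 and 65.4 (n = 41). A match describes these letters only, and no factor's binding was measured.

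Few families had 1 leader in each library. Leaders and shares were taken among the listed members of a family only. The leading paralog by counts per coding length was the same gene with oligo(dT) and random hexamers in 13 of 23 families. It led in every library with at least 20 family reads in 8 families with oligo(dT) and 7 with random hexamers, and it held at least 80% of its family in 5 families with each primer. Between paps1-1 and WT the leader was the same gene in 13 families with oligo(dT) and in 16 with random hexamers. No leader changed when raw counts replaced counts per length.

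Dominant paralogs were found among both body and head families. AT5G02960 held 100% of RPS23 with oligo(dT) and 97.0% with random hexamers. AT5G18380 held 95.9% and 84.9% of RPS16, a head protein whose tail reaches the peptidyl site. AT1G72370 (P40) held 83.2% and 92.6% of RPSA, the homologue of the laminin receptor that sits between head and platform. AT2G41840 held 70.5% and 87.4% of RPS2, a protein of the mRNA entry.

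Other families were more evenly shared with random hexamers. The 3 RPS3 genes, for a head protein at the mRNA entry, held 32.7%, 34.1% and 33.2% with random hexamers in the order AT2G31610, AT3G53870 and AT5G35530, against 50.2%, 24.9% and 24.9% with oligo(dT). AT4G31700 held 70.0% of RPS6 with oligo(dT) and 58.3% with random hexamers, and led AT5G10360 in each library used (7 and 8). The leading RPS9 gene AT5G15200 held 96.0% with oligo(dT) and 68.5% with random hexamers, and also led in each library used (7 and 8).

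**Figure D3:**
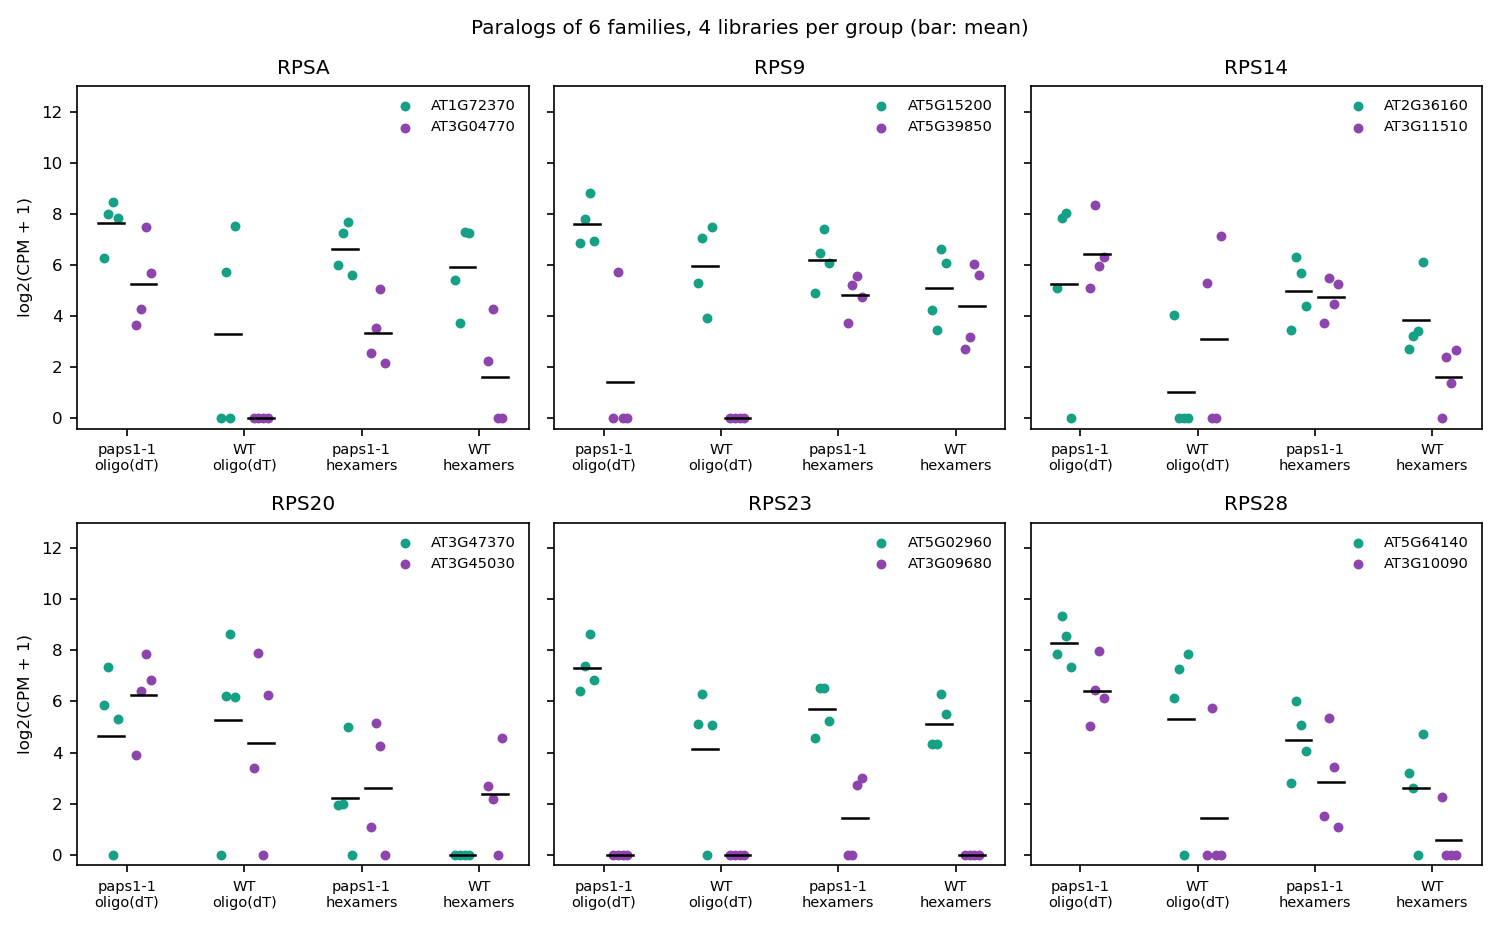
Levels of 2 paralogs from each of 6 families as log2(CPM + 1) (y axis) in the 4 groups (x axis); points are libraries and bars their means (n = 4). AT3G09680 (RPS23) has reads in 2 libraries, AT3G04770 (RPSA) is at 0 in the 4 WT oligo(dT) libraries, and AT5G39850 (RPS9) has reads in 1 of 8 oligo(dT) libraries.

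The genotypes were first compared in the oligo(dT) libraries. No 40S gene passed the threshold of 0.05 between paps1-1 and WT (edgeR quasi-likelihood test, Benjamini-Hochberg adjustment over all tested genes, 0 of 45 tested members). Over all 5101 tested genes 1 passed, which is 0.0196%. At an unadjusted p under 0.05 the count was 1 member of 45, against 1.69% of all tested genes. DESeq2 called 1 member, AT3G04770, against 1.0% of all tested genes. Fitted values were above 0 for 42 of 45 members, with a median log2 fold change of 1.40, against 63.5% above 0 and a median of 0.43 over all tested genes. With the 1 tested member that was at 0 in WT set to its lower bound, the median stayed at 1.40. Without paps1-1 replicates 2 and 3, 34 of 47 were above 0 and the median was 0.52, with 0.28 over all tested genes. Of the other ribosomal lists, 19 of 20 small-subunit genes (median 1.11) and 19 of 21 large-subunit genes (median 1.60) were above 0, and none passed the threshold. The other 12 members were not tested, because too few libraries held enough reads of them. AT1G04270 (RPS15), for example, had 40.7, 271, 47.3 and 0 CPM in paps1-1, against 0, 0, 0 and 2.25 CPM in WT. Of its 1368 reads in paps1-1, 1216 came from replicate 2.

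AT3G04770 (RPSAb), the minor RPSA gene, was the member of smallest p. It had 11.4, 18.5, 177 and 51.0 CPM in paps1-1 oligo(dT) libraries, against 0, 0, 0 and 0 CPM in WT. The groups do not overlap, and each paps1-1 library had reads. The count of 0 in WT replicate 3 allows up to 42.9 CPM, however, which is above the values of paps1-1 replicates 1 and 2. Pooled over libraries, 272 reads in paps1-1 against 0 in WT make it at least 51.3-fold higher in paps1-1 (against 3 reads over the WT group). The bound was 29.8-fold without paps1-1 replicate 3 and 20.5-fold without WT replicate 1. The edgeR adjusted p was 1.00 (unadjusted 0.0104), and the DESeq2 log2 fold change of 8.14 ± 2.13 (SE) had an adjusted p of 0.0146. Counted without regard to strand the log2 fold change was -0.18, because 36 reads lay on the opposite strand in WT replicate 3. With random hexamers it had 4.91, 10.5, 32.3 and 3.46 CPM in paps1-1, against 3.79, 18.2, 0 and 0 CPM in WT, and there the groups overlap.

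Every paps1-1 library exceeded every WT library for 3 of 45 members with oligo(dT), AT3G04770, AT3G53870 and AT5G02960, against 2.41% of all tested genes. The reverse order held for 0 of 45, against 0.804%. AT3G53870 (RPS3) had 65.9, 97.2, 153 and 130 CPM in paps1-1, against 24.4, 58.0, 0 and 23.7 CPM in WT. Of the other members of small p, AT2G36160 (RPS14, a platform protein) had 33.1, 229, 260 and 0 CPM in paps1-1 against 15.6, 0, 0 and 0 CPM in WT, a log2 fold change of 4.53 ± 2.50 (SE, edgeR adjusted p = 1.00). That value was 2.43 without paps1-1 replicates 2 and 3, 3.92 without paps1-1 replicate 2, and 10.38 without WT replicate 1, the WT library with reads. AT2G31610 (RPS3) had 53.8, 201, 402 and 304 CPM in paps1-1, against 0, 1.00, 0 and 154 CPM in WT. Both pairs of groups overlap. Fitted values lay below 0 for 3 members, among them AT3G47370 (RPS20, a head protein) at -0.32 ± 1.95 (SE), which took the opposite sign when some single libraries were left out.

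Some members were absent from all WT oligo(dT) libraries. A total of 9 members had no read in the 4 WT oligo(dT) libraries, and 1 of these, AT3G09680, had none in paps1-1 oligo(dT) libraries either. The others included AT3G57490 (RPS2), which had reads in 4 of 4 paps1-1 oligo(dT) libraries, AT3G61110 (RPS27), with reads in 3, and AT1G48830 (RPS7), with reads in 2. The paps1-1 values of AT3G57490 were 1.73, 28.8, 155 and 1.76 CPM in replicates 1 to 4. Those of replicates 1 and 4 lie below what a count of 0 allows in WT replicates 2 to 4 (3.00, 42.9 and 3.38 CPM). Lower bounds against 3 reads over the WT group were 46.4-fold for AT3G57490 and 63.5-fold for AT3G61110, and they cover counting error only. The bound of AT3G57490 was 27.8-fold without paps1-1 replicate 3 and 18.5-fold without WT replicate 1. The bound of AT3G61110 was 43.0-fold without paps1-1 replicate 2 and 25.4-fold without WT replicate 1. No bound is given for AT1G48830, in which nearly all paps1-1 reads came from replicate 2, at 113 CPM, with 1.04 CPM in replicate 1 and 0 CPM in replicates 3 and 4. Genes of any kind detected with oligo(dT) numbered 5424 to 14241 in paps1-1 libraries and 2266 to 7750 in WT libraries. Of the 33323 genes, most thus had no read in each WT oligo(dT) library. The share of all genes at 0 in all 4 was not computed, so the 9 members are not set against it.

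With random hexamers, again no 40S gene passed the threshold between paps1-1 and WT (edgeR, 0 of 52 tested members, adjusted p = 1.00 for each). Over all 12595 tested genes 9 passed, which is 0.0715%. At an unadjusted p under 0.05 the count was 1 member of 52, against 2.33% of all tested genes, and DESeq2 called 0 members, against 0.294%. Fitted values were above 0 for 47 of 52 members (90.4%), against 65.7% of all tested genes, and the medians were 0.62 and 0.38. Without paps1-1 replicates 2 and 3, 23 of 52 members were above 0 and the median was -0.09, with 0.24 over all tested genes. These replicates had the highest 40S shares of paps1-1, so a lower value follows from leaving them out and tests no direction. The medians of members and of all tested genes were close without WT replicate 1 (0.55 and 0.57), without WT replicate 2 (0.77 and 0.76) and with no filter on low counts (0.62 and 0.62). Of the other ribosomal lists, small-subunit genes had 26 of 27 tested above 0 with a median of 1.04, and large-subunit genes 20 of 21 with a median of 0.80, and none of either list passed the threshold.

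AT3G11510 (RPS14) was the member of smallest p with random hexamers. It had 12.3, 43.5, 21.1 and 37.5 CPM in paps1-1, against 0, 4.29, 1.59 and 5.43 CPM in WT. The groups do not overlap, and the log2 fold change was 3.26 ± 1.49 (SE, edgeR unadjusted p = 0.0373, adjusted p = 1.00). With oligo(dT) the same gene had 33.5, 326, 61.3 and 79.1 CPM in paps1-1 against 38.0, 0, 0 and 138 CPM in WT, where the groups overlap. AT1G58380 (RPS2) also stood higher in each paps1-1 library, at 13.8, 41.4, 63.3 and 15 CPM, against 8.62, 13.6, 4.77 and 1.98 CPM in WT. These 2 of 52 members compare with 4.6% of all tested genes in which every paps1-1 library exceeded every WT library, and the reverse order held for 0 of 52 members, against 1.52%.

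AT3G61110 (RPS27, a zinc-binding protein of the platform) had 6.04, 150, 46.4 and 38.1 CPM in paps1-1, against 5.86, 18.7, 0 and 10.9 CPM in WT with random hexamers, a log2 fold change of 2.25 ± 1.16 (SE, edgeR adjusted p = 1.00). RPS13A (AT4G00100), the gene of the leaf-shape mutant pointed first leaf 2, had 21.9, 77.4, 105 and 24.2 CPM in paps1-1, against 11.4, 3.54, 0 and 24.7 CPM in WT, at 2.12 ± 1.14. The groups overlap for both genes. Without paps1-1 replicates 2 and 3 the fold changes were 1.37 for AT3G61110 and 1.43 for AT4G00100. PFL (AT1G22780), the RPS18 gene of the pointed first leaf mutant, had 13.8, 57.9, 66.1 and 17.3 CPM in paps1-1, against 8.27, 18.9, 11.1 and 20.3 CPM in WT, at 1.07 ± 1.08. Further fitted values of small p above 0 were 1.52 for AT3G60770 (RPS13), which was 1.00 without paps1-1 replicates 2 and 3, and 1.25 for AT5G52650 (RPS10). The 5 members below 0 were AT2G09990 (RPS16) at -1.41, AT1G34030 (RPS18) at -0.86, AT4G25740 (RPS10) at -0.51, AT5G39850 (RPS9) at -0.11 and AT5G35530 (RPS3) at -0.07, and each took the opposite sign when some single library was left out. The medians of head genes and of body and platform genes lay close together, without a test of their difference: 17 of 21 tested head genes had fitted values above 0, with a median of 0.70, and 30 of 31 body and platform genes, with a median of 0.61.

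**Figure D4:**
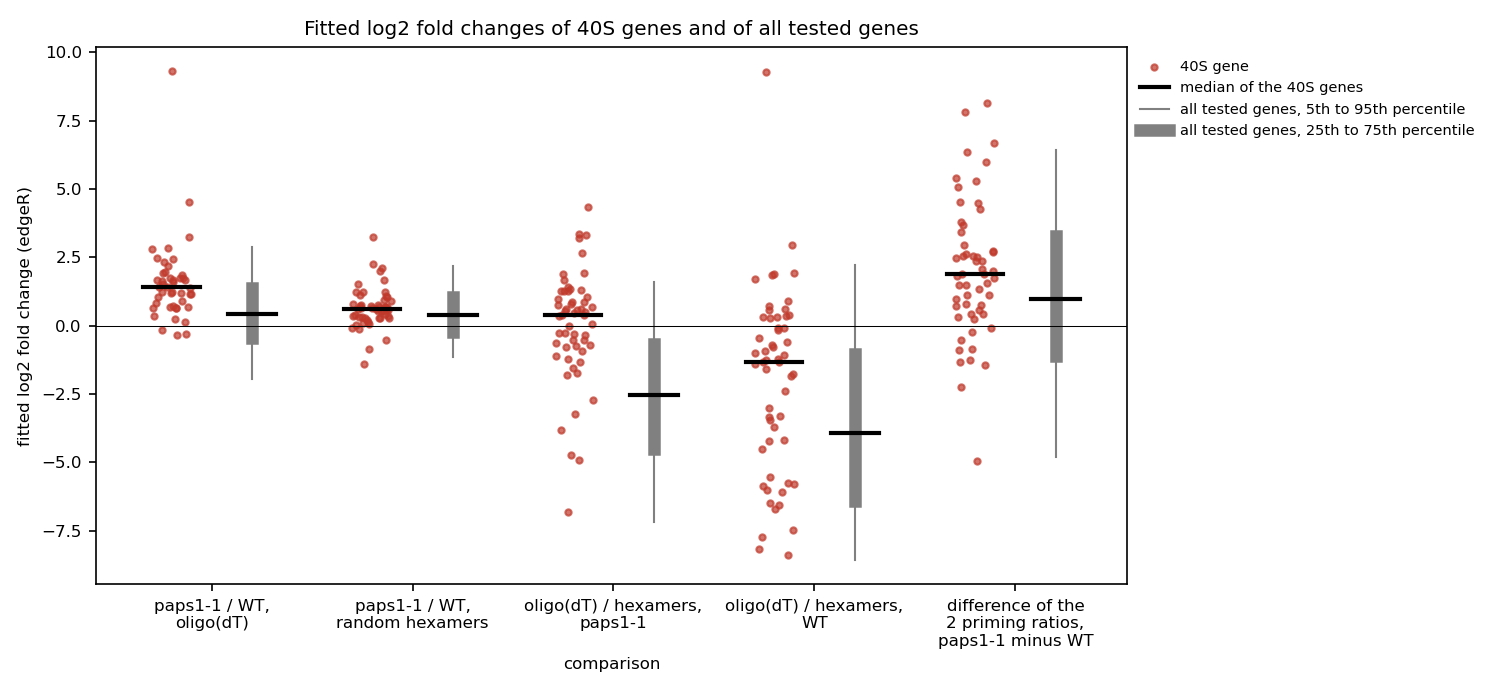
Fitted log2 fold changes (y axis, edgeR) of the tested 40S genes (red points, black bar at their median) in 5 comparisons, beside those of all tested genes (grey, 5th to 95th and 25th to 75th percentiles, black bar at the median). The member medians lie above the median of all tested genes in each comparison, by the most in the priming contrasts, and with random hexamers between genotypes by 0.62 against 0.38, a gap that other settings closed.

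The priming methods were then compared within each genotype, in a fit that keeps the RNA sample as a block. Within paps1-1 no member passed the threshold (edgeR, 0 of 55 tested, against 0.282% of 14190 tested genes), and 0 members had an unadjusted p under 0.05, against 11.1%. Within WT no member passed either (0 of 55, against 1.15%), and 9 had an unadjusted p under 0.05, against 20.2%, 1 of them higher and 8 lower with oligo(dT). DESeq2 called 2 members within paps1-1, among them AT5G64140 (RPS28), both higher with oligo(dT), against 6.65% of all tested genes. Within WT it called 6, against 12.3%: AT5G64140 (RPS28) and AT3G47370 (RPS20) were higher with oligo(dT), and AT1G04270 (RPS15), AT2G31610 (RPS3), AT5G39850 (RPS9) and AT5G58420 (RPS4) lower.

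Most tested genes had fitted log2 ratios of oligo(dT) to random hexamers below 0, and the difference between members and other genes was not tested. The median log2 ratio of oligo(dT) to random hexamers was 0.41 for members within paps1-1 and -1.31 within WT, against -2.53 and -3.92 for all tested genes. It was above 0 for 31 of 55 members within paps1-1 and 15 of 55 within WT, against 17.2% and 16.9% of all tested genes. Large-subunit genes had 10 of 22 above 0 within paps1-1 (median -0.32) and 4 of 22 within WT (median -1.64), and the other small-subunit genes 13 of 31 (median -0.40) and 14 of 31 (median -0.64). On the plain CPM scale, over all 8 RNA samples, the median ratio of the 54 members with a mean of at least 5 CPM with random hexamers was 0.99 on the log2(CPM + 1) scale, with 40 above 0 (74.1%), against -0.39 and 41.0% for 13346 coding genes. Within paps1-1 the median was -0.05 without replicate 1 and 0.05 without replicate 2, with 27 and 28 of 55 members above 0. Within WT it was -0.68 without replicate 3 and -2.34 without replicate 4. With DESeq2 size factors the members' medians were 0.97 within paps1-1, with 37 of 55 above 0, and -0.36 within WT, with 21 of 55 above 0.

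AT5G64140 (RPS28) had the smallest p within paps1-1. Its oligo(dT) values in paps1-1 were 231, 655, 379 and 162 CPM, against 6.04, 64.2, 32.3 and 15.6 CPM for the partner libraries. In WT it reached 68.6, 152, 0 and 230 CPM with oligo(dT) and 8.27, 5.05, 0 and 25.2 CPM with random hexamers. The oligo(dT) value was higher in 7 of 7 RNA samples with reads. The log2 ratio was 3.21 ± 1.68 within paps1-1 (SE, edgeR adjusted p = 0.464, DESeq2 adjusted p = 0.00158) and 2.96 ± 1.85 within WT (edgeR adjusted p = 0.325, DESeq2 adjusted p = 0.00481). Its paralog AT3G10090 averaged 61.5 CPM with oligo(dT) and 7.11 CPM with random hexamers.

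The listed RPS20 genes, for a head protein, also stood higher with oligo(dT). AT3G47370 had 57.6, 161, 0 and 38.7 CPM with oligo(dT) in paps1-1, against 2.83, 3.00, 30.9 and 0 CPM in their random-hexamer partners. In WT it had 0, 73.0, 400 and 71.0 CPM with oligo(dT) and no read in the 4 random-hexamer libraries. The log2 ratio within WT was 9.28 ± 3.31 (SE, edgeR adjusted p = 0.135, DESeq2 adjusted p = 0.000953); since it rests on a group at 0, its size depends on the prior count. AT3G45030 was higher with oligo(dT) in 7 RNA samples and lower in 0.

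AT5G39850, the lower RPS9 gene, went the other way. It had 0, 52.0, 0 and 0 CPM with oligo(dT) in paps1-1 and no read in WT, against 12.3, 36.0, 46.4 and 26.0 CPM with random hexamers in paps1-1 and 5.52, 8.08, 65.2 and 47.9 CPM in WT. The random-hexamer library was higher in 7 of 8 RNA samples. Its log2 ratio was -6.82 ± 3.72 within paps1-1 and -8.38 ± 3.25 within WT (SE, edgeR adjusted p = 0.485 and 0.169), and the size of the WT value, which rests on a group at 0, depends on the prior count. The paralog AT5G15200 had reads in each oligo(dT) library, at 114, 220, 446 and 121 CPM in paps1-1, against 38.0, 133, 14.3 and 178 CPM in WT, and was higher with oligo(dT) in 7 of 8 RNA samples. AT3G61110 (RPS27), AT1G48830 (RPS7) and AT2G41840 (RPS2) also averaged less with oligo(dT), at 11.3, 14.3 and 88.5 CPM, against 34.5, 23.1 and 192 CPM with random hexamers.

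Shorter genes tended to be higher with oligo(dT). Of members with a mean of at least 5 CPM with random hexamers, which leaves out AT3G47370 (RPS20), the log2 ratio was above 0 for 6 of 7 with a coding length under 400 bases (median 2.33), for 23 of 29 between 400 and 600 bases (median 1.08) and for 11 of 18 above 600 bases (median 0.57). Spearman's rho between ratio and coding length was -0.30 over 54 members and -0.33 over 13346 coding genes, as a description across genes that share the same libraries. AT3G61110 departs from it, with a coding length of 261 bases and a ratio of -1.53.

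**Figure D5:**
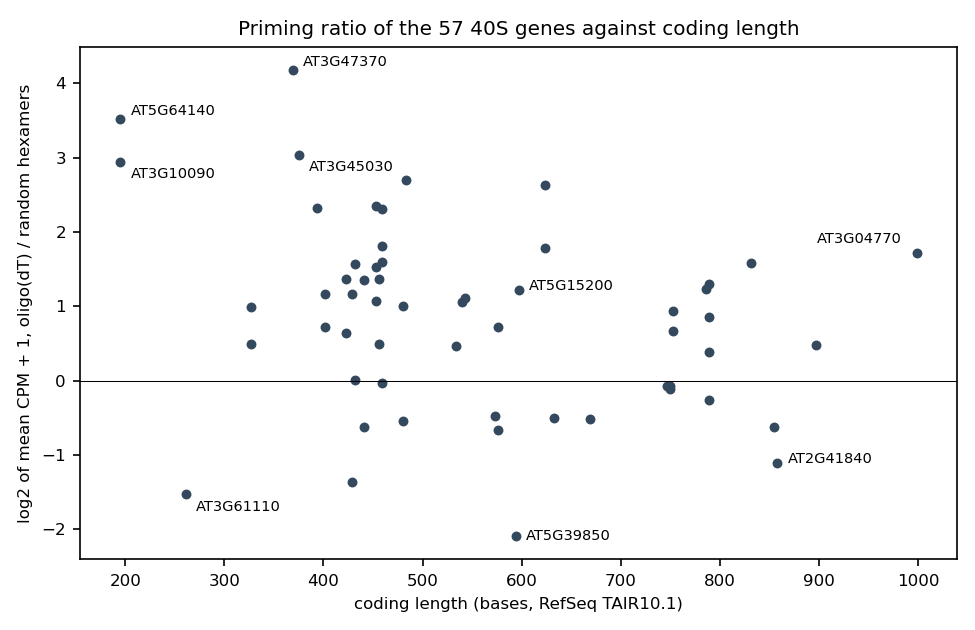
Log2 ratio of mean oligo(dT) to mean random-hexamer level (y axis, CPM + 1, means over 8 libraries each) against coding length in bases (x axis) for the 57 40S genes. RPS28 and RPS20 genes lie highest among the short genes, and AT3G61110 (RPS27) and AT5G39850 (RPS9) lowest.

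Oligo(dT) libraries often missed a member outright that the partner library held. Among members with at least 10 random-hexamer reads, those without an oligo(dT) read numbered 3 of 52, 0 of 55, 11 of 52 and 17 of 47 in paps1-1 replicates 1 to 4, and 18 of 47, 19 of 51, 23 of 26 and 7 of 47 in WT. The same held for 30.9%, 22.4%, 61.0% and 64.7% of all genes with as many reads in paps1-1, and for 53.1%, 65.3%, 79.7% and 47.5% in WT. Members were missed at a lower share than all genes in 7 of 8 RNA samples, without matching for level. In the other direction, 13 of 285 cases (4.56%) with at least 10 oligo(dT) reads had no random-hexamer read, against 98 of 377 (26.0%) above. These cases pool genes and RNA samples and are not independent. All genes with as many oligo(dT) reads lacked a random-hexamer read in 8.38%, 6.47%, 5.36% and 14.6% in paps1-1. In WT the shares were 5.21%, 8.72%, 53.2% and 34.2%, so all genes were also missed less often in this direction.

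The last comparison asks whether the oligo(dT) to random-hexamer ratio differs between the genotypes, the quantity that the title links to tail length. No member passed the threshold (edgeR, 0 of 55, against 0.0% of 14190 tested genes), 1 had an unadjusted p under 0.05, against 1.63%, and DESeq2 called 0 members, against 0.275%. The difference in log2 ratio, paps1-1 minus WT, was above 0 for 45 of 55 members, against 62.9% of all tested genes, with medians of 1.88 and 0.97. Without paps1-1 replicates 2 and 3 it was above 0 for 36 of 54 members, and the medians were 1.21 and 0.69. Without WT replicate 1 the members' median was 1.13. The 22 large-subunit genes had 19 of 22 above 0 and a median of 2.54, and the other small-subunit genes 19 of 31 and a median of 0.43.

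AT2G31610 (RPS3) had the smallest p of the interaction. Its oligo(dT) values are given above, and with random hexamers it had 31.5, 143, 139 and 65.7 CPM in paps1-1, against 20.3, 53.3, 44.6 and 81.5 CPM in WT. Oligo(dT) exceeded random hexamers in 4 of 4 paps1-1 samples and in 1 of 4 WT samples. The difference was 6.36 ± 3.00 (SE, edgeR unadjusted p = 0.0340, adjusted p = 1.00). AT3G04770 (RPSAb) followed at 8.14 ± 4.49, with oligo(dT) higher in 4 of 4 paps1-1 samples and in 0 of 4 WT samples. AT3G57490 (RPS2) followed at 7.82 ± 4.40 and AT5G58420 (RPS4) at 5.08 ± 3.30. AT3G47370 (RPS20) had the most negative difference, -4.93 ± 3.27. AT3G04770 and AT3G57490 had no read in WT oligo(dT) libraries and AT3G47370 none in WT random-hexamer libraries, so the sizes of their differences depend on the prior count.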

How the data were processed

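The authors deposited gene counts per library as STAR wrote them, aligned to TAIR10 per the submitters' processing notes. No source used here gives the annotation release or the STAR version. Column 3, the counts of the first strand setting, was used, and 4 rows that name no gene, with 55.1% to 99.6% of reads, were left out of library sizes. Libraries were made with the PicoPure and Ovation kits per the labels' protocols. Genes were tested with edgeR 4.0.16 (TMM, quasi-likelihood test, filterByExpr with a minimum count of 10 and total of 15, Benjamini-Hochberg adjustment over all tested genes, threshold 0.05) in R 4.3.3. Each genotype comparison used the 8 libraries of 1 primer. The priming contrasts and their difference used all 16 libraries and blocked on the RNA sample, since the labels' protocols split each RNA in 2. Standard errors are the fold change over the square root of F. Alternatives were DESeq2 1.42.0 (size factors, and its Wald test), no filter, unstranded counts, the replicate block, and leaving libraries out. Fits were tested on data simulated with a fixed dispersion for all genes, which was not matched to the spread or the zeros of these libraries.

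The members and lists were chosen with earlier results of these data known. Named genes were the 5 members of smallest p in each direction, the 10 highest per length, members without reads in a group, leading paralogs and a set of known mutant genes. Lengths, upstream windows and symbols came from RefSeq TAIR10.1 by locus identifier, and sequence features were computed within that build. The grouping into head and body proteins was made after the values had been seen. All counts over members cover the 57 genes, and values of 9 single genes are not reported here.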

Additional observations from a re-analysis of the deposited data

Results flagged for a closer look

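In 9 of 76 groups of 4 libraries, 1 library stood apart from the other 3 by Dixon's ratio at its 95% critical value. Chance gives about 1 in 20 for normally distributed values, a rate that CPM with many zeros need not follow. The groups are those of 18 members and of the 40S share, and no explanation was weighed.

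Among paps1-1 oligo(dT) libraries, replicate 2 was high for 4 members. AT4G31700 (RPS6) had 694 CPM there, with 109 to 171 CPM in the others, and AT3G11510 (RPS14) 326 CPM, with 33.5 to 79.1 CPM. AT1G48830 (RPS7) had 113 CPM, with 0 to 1.04 CPM in the others, and AT5G39850 (RPS9) 52.0 CPM, with 0 in the others.

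Among WT oligo(dT) libraries, replicate 4 held 154 CPM of AT2G31610 (RPS3), with 0 to 1.00 CPM in the others. Replicate 1 held 15.6 CPM of AT2G36160 (RPS14), with 0 in the others.

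Among paps1-1 random-hexamer libraries, AT3G47370 (RPS20) had 30.9 CPM in replicate 3, with 0 to 3.00 CPM in the others. Among WT random-hexamer libraries, replicate 4 was high for AT5G10360 (RPS6B) at 162 CPM, with 38.2 to 56.3 CPM in the others, and for AT2G36160 at 67.7 CPM, with 5.52 to 9.55 CPM.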

How the results depend on the processing

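The count of 0 members past the threshold held under most alternatives. DESeq2's Wald test called 1 member between genotypes with oligo(dT), 6 members between primers within WT and 2 within paps1-1, and the fit without the block for the RNA sample (no pairing) called 1 within WT, AT3G47370 (9.69, adjusted p = 0.0419). Another 96 values stayed within the spread between replicates (the 40S share) or at or near the reported count (paralog leaders and calls). Families with the same leader with both primers numbered 11 to 16 when single replicates were left out, against 13. Of single genes and medians, 630 values kept their direction and side of the threshold, 6 passed it and 25 changed sign, all without a call, and the cause was not tested. DESeq2 size factors moved the median of all tested genes between genotypes to 0.53 with random hexamers, against 0.38, and to 0.81 with oligo(dT), against 0.43.

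With random hexamers between genotypes, leaving out single replicates moved AT5G39850 between -0.27 and 0.47, AT2G09990 between -2.11 and 0.86, AT5G35530 between -0.25 and 0.29, AT4G25740 between -0.93 and 0.97, and AT1G34030 between -1.26 and 0.10. AT5G39850 was 0.015 with unstranded counts. The members' median was -0.089 without paps1-1 replicates 2 and 3. With oligo(dT), the range was -1.18 to 0.77 for AT3G47370, and AT3G04770 was -0.18 with unstranded counts. Within paps1-1 the members' median between primers spanned -0.054 to 0.79 over single replicates left out. For the interaction, AT4G39200 spanned -2.22 to 0.39, and AT5G18380 was 0.080 with no block.

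Replicate numbers were not taken to pair the genotypes, and a check of this was mixed. Deviations of same-numbered libraries correlated at -0.08 to 0.30 with random hexamers and -0.07 to 0.21 with oligo(dT). Replicates 1 and 2 but not 3 and 4 correlated best with their own number. With the number as a replicate block, 0 members were called. The members' median was 0.89 with random hexamers (48 of 52 above 0), with 0.89 over all tested genes, and 2.48 with oligo(dT) (44 of 45), with 1.02 over all tested genes. Under that block AT2G09990 was 0.97, AT5G39850 0.32 and AT5G35530 0.17 with random hexamers, and AT3G47370 was 0.17 with oligo(dT).

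The shallowest oligo(dT) library held 70006 gene counts, and 12 members could not be tested with that primer, against 5 with random hexamers.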

Other observations

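Ratios between primers differed within families as well as between them. Both listed RPS28 genes and both listed RPS20 genes averaged more with oligo(dT). The log2 ratios of mean CPM + 1 were 3.52 and 2.94 for AT5G64140 and AT3G10090, and 4.18 and 3.04 for AT3G47370 and AT3G45030. The RPS9 pair split, at 1.22 for AT5G15200 and -2.09 for AT5G39850. These values were chosen after they were seen, and no difference between paralogs was tested.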
